A study of Rattus norvegicus with 26 samples.

Results

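The gubernaculum of ORL rats was compared between gestational day 19 (GD19) and gestational day 17 (GD17). ORL is a strain with inherited cryptorchidism, in which testes fail to descend. The comparison used the 6 arrays titled as ORL at GD19 and the 7 titled as ORL at GD17, 13 of the 26 arrays of the series, chosen by strain and age alone. The other arrays were 5 of Long Evans (LE) rats at GD17, 6 of LE at GD19 and 2 at GD19 whose strain the labels give as unknown. LE is the outbred strain that served as the comparison. The labels name no treatment and no engineered allele in any group. Each array carried RNA of gubernacula pooled within a litter, so n counts litter pools and the spread between fetuses of a litter is not seen. Batch 1 of the hybridizations held 3 ORL arrays of each age, and batch 2 held 4 of GD17 and 3 of GD19. Of the probe sets, 15746 reached log2 4 on at least 5 of the 24 arrays with a strain, and they stood for 9610 genes. Just inside that limit lay 143 probe sets that reached it on exactly 5 arrays, and just outside lay 137 that reached it on 4.

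The gubernaculum joins the fetal testis and epididymis to the abdominal wall. In rodents it grows and shortens under the testicular hormones insulin-like 3 and testosterone before birth, and its outer layer becomes the cremaster, a striated muscle around a core of mesenchyme. Fetal striated muscle forms as myoblasts stop dividing under the myogenic regulators, fuse into fibres and assemble sarcomeres, while embryonic and neonatal isoforms of myosin precede the adult ones. The mesenchymal core is rich in hyaluronan and proteoglycans early on and gains collagen later.

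The labelled tissue was checked against markers. Of 15 striated muscle markers listed, 13 were tested, with a mean log2 level of 10.38 ± 0.17 at GD17 (SD, n = 7) and 12.03 ± 0.25 at GD19 (n = 6). Of 16 markers of testis, epididymis and germ cells on the array, 2 were bright enough to be tested, Inha and Emx2, and neither was called. Correlations within a group ran from 0.959 to 0.991. On the first principal component (38.5% of the variance) the ORL arrays of GD17 lay between -37.19 and -23.87, and 5 of the 6 of GD19 lay between 14.0 and 26.3. ORL_GD19 replicate 4 lay at -3.98, between the ages, so that values without it are given where it moves a result.

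With age, 2278 genes rose (23.7% of the 9610) and 2530 fell (26.3%) in ORL at a limma adjusted p under 0.05. At least 2-fold changes were fewer and leaned upwards, with 471 rises and 122 falls. Of the 4808 called genes, 4803 had the same sign in both hybridization batches. All GD19 arrays lay above all GD17 arrays for 1024 genes (10.7%) and below them for 967 (10.1%). With nearly 1 in 2 genes called, a list is read below against these shares and against the median over all genes, which was -0.03. All log2 differences are GD19 minus GD17 with the SE of the limma fit, and levels are log2 GCRMA values.

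A feature of whole arrays moved with age in ORL. The slope of an array's levels on gene span (the genomic length of a gene in RefSeq, per 10-fold) ran from -0.188 to -0.0186 in the 7 ORL arrays of GD17. It ran from 0.0354 to 0.162 in the 6 of GD19, so the ages did not overlap (exact permutation test, two-sided, p = 0.000583, the smallest possible here, and 0.00189 after Benjamini-Hochberg adjustment over 13 array measures). Genes were split by span into 5 classes of like size; in the class of short genes (median 4.36 kb) the median change was -0.166, and in the longest (127 kb) it was 0.176. In LE the slope moved the other way, from a mean of 0.0599 at GD17 to -0.0394 at GD19, where 2 of the 6 arrays lay at -0.157 and -0.156. Gene span is not transcript length, and the labels hold no measure of RNA quality. With the slope as a covariate, 469 genes rose (4.88%) and 258 fell (2.68%). In ORL the covariate overlaps with age, and the median SE of a probe set rose from 0.122 to 0.195. Counts with this covariate stand beside each list below, and its part in the results was not tested further.

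**Figure D1:**
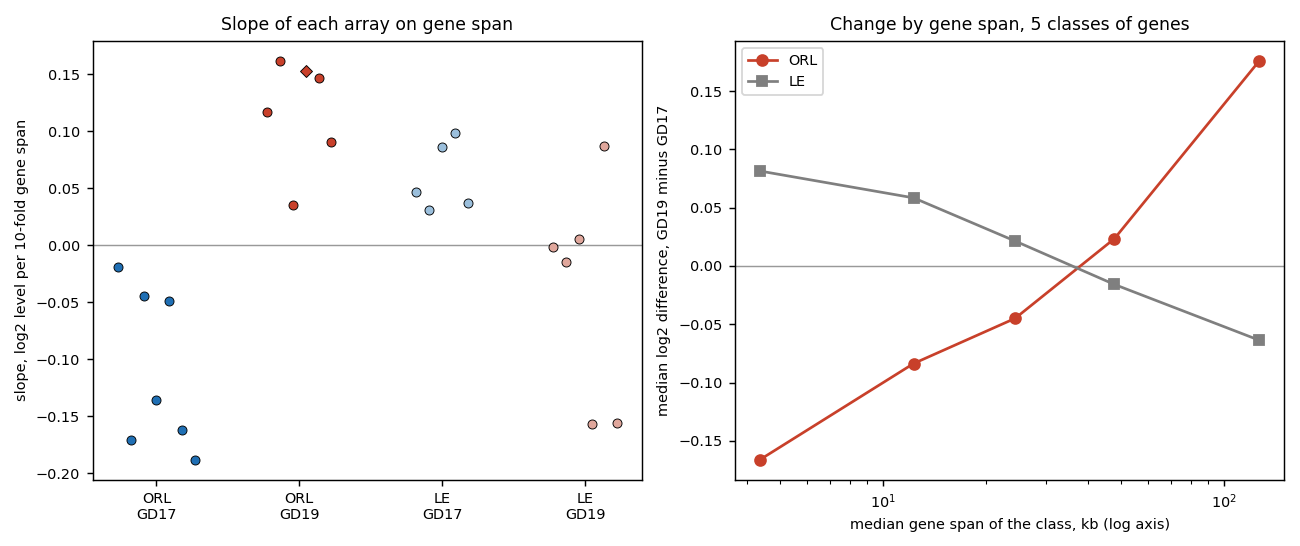
Left, the slope of log2 level on gene span (log2 per 10-fold span) for each array by strain and age, with a diamond for ORL_GD19 replicate 4. Right, the median log2 difference GD19 minus GD17 in 5 classes of genes by span, on a log axis, for ORL (circles) and LE (squares). The ORL medians run from -0.166 to 0.176 and the LE medians from 0.0814 to -0.0637.

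Genes of the contractile apparatus rose together. Of 30 tested genes of sarcomere filaments and the M-band, 28 rose and 1 fell, with a median difference of 1.52. When the slope was a covariate, 24 rose and 0 fell (median 1.42), and the median was 1.61 within batch 1 and 1.46 within batch 2. Without ORL_GD19 replicate 4 again 28 rose and 1 fell. In bulk tissue a larger share of muscle cells and more RNA per muscle cell cannot be told apart.

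The myosin heavy chains did not move alike. Myh3, the embryonic heavy chain, stood at 12.47, 13.06 and 13.43 at GD17 (lowest, median and highest array) and at 14.43, 14.72 and 14.84 at GD19. Its levels did not overlap between the ages, and it rose by 1.74 ± 0.16 (limma adjusted p = 3.16e-07). Myh8, the perinatal heavy chain, stood at 5.3, 5.93 and 6.55 at GD17 and at 8.84, 10.23 and 10.83 at GD19. It rose by 4.01 ± 0.43, 16.1-fold, with no overlap. Myh7, the slow and cardiac heavy chain, stood at 8.63, 9.12 and 9.64 at GD17 and at 11.19, 11.63 and 11.97 at GD19, a rise of 2.46 ± 0.23. Myh1, an adult fast heavy chain, went the other way. Its levels were 11.05, 11.42 and 11.94 at GD17 and 9.48, 10.34 and 11.2 at GD19, which overlapped, and it fell by 1.08 on the log2 scale (SE 0.26, limma adjusted p = 0.00214). The 4 other probe sets named Myh1 were also called lower. Under the slope covariate the Myh1 difference was -1.24 and its limma adjusted p 0.0994. Within batch 2 it was -1.16 and was not called. The heavy chain genes are close copies of each other, and whether probes of these sets bind more than 1 of them was not checked here. The adult fast heavy chains Myh2 and Myh4 reached at most 2.24 and 2.32 on any array and were not tested.

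Thin filament and light chain genes rose over a narrower range. Skeletal alpha-actin, Acta1, stood at 13.69, 13.94 and 14.02 at GD17 and 14.54, 14.83 and 14.92 at GD19, and rose by 0.93 ± 0.10. The fast troponin genes Tnnt3, Tnni2 and Tnnc2 rose by 1.99, 1.48 and 0.82. Their slow or cardiac counterparts Tnnt1, Tnni1 and Tnnc1 rose by 0.93, 1.07 and 0.62, and the cardiac and embryonic troponin T gene Tnnt2 rose by 1.44. Of these 7 troponin genes, Tnnt1 was the exception that was no longer called with the slope as a covariate (0.75, limma adjusted p = 0.109). Among light chains, Myl2, the slow regulatory chain, rose by 2.97 ± 0.49. Its lowest GD19 array (5.96) lay below its highest GD17 array (6.11). Myl3 rose by 1.64, the embryonic and atrial chain Myl4 by 0.84 and the fast chain Myl1 by 0.69. Nebulin, Neb, which spans the thin filament, rose by 2.99 ± 0.34, from a GD17 median of 7.31 to a GD19 median of 10.44. A second tested probe set of Neb was not called. The myosin-binding protein Mybpc1 rose by 2.02 and the M-band protein Myom1 by 1.79.

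**Figure D2:**
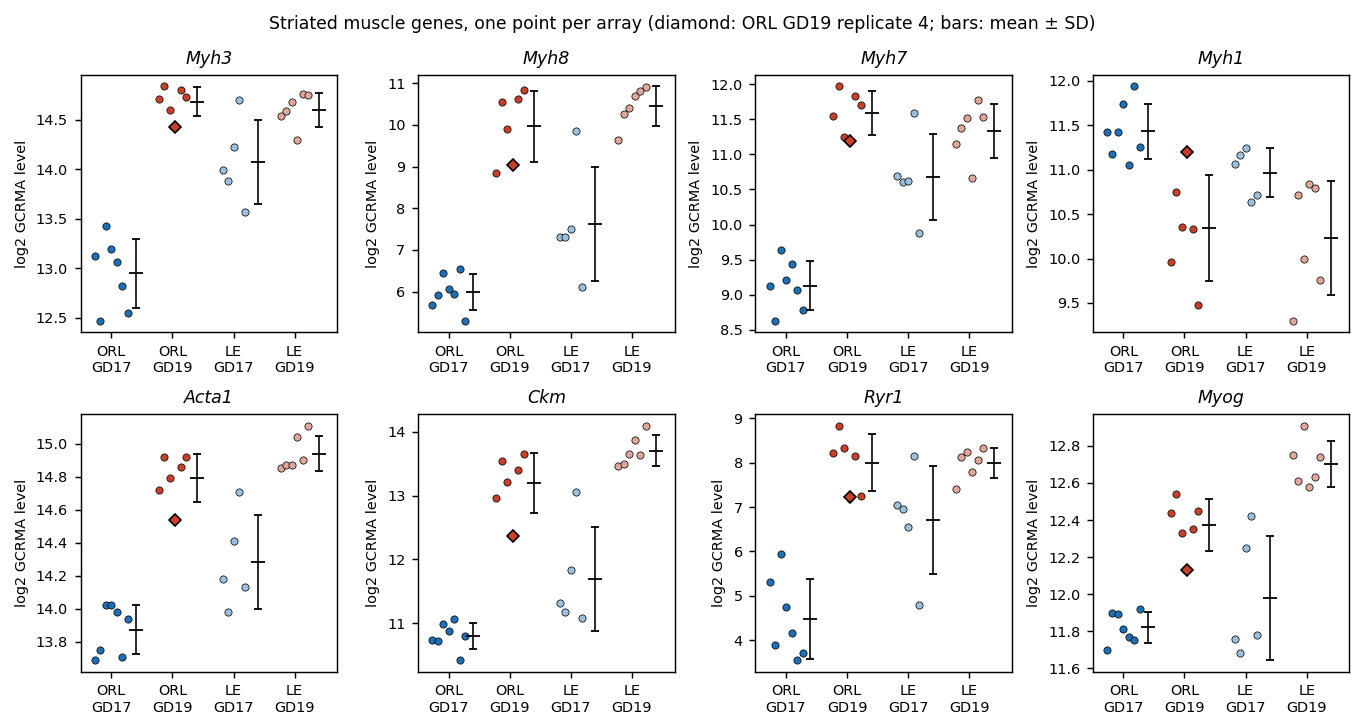
Log2 GCRMA levels of 8 striated muscle genes, a point per array, in ORL and LE at each age, with mean and SD beside each group; the diamond is ORL_GD19 replicate 4. In ORL the 2 ages do not overlap for Myh3, Myh8, Myh7, Acta1, Ckm, Ryr1 and Myog, and overlap for Myh1.

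At the Z-disc, where thin filaments are anchored, and the costamere, which ties it to the membrane, 19 of 23 tested genes rose and 0 fell (median 1.03; 17 and 0 with the slope as a covariate). Myoz1, a calcineurin-binding protein of fast fibres, rose by 2.96 ± 0.41, from between 5.53 and 6.08 to between 7.54 and 9.43. Ldb3, a linker of the Z-disc, rose by 1.74, with 3 other probe sets called the same way. The alpha-actinin gene Actn2 rose by 1.73, myotilin, Myot, by 1.36, filamin C, Flnc, by 1.34, desmin, Des, by 1.21 and the small heat shock protein Hspb1 by 1.03. The 4 members that were not called were Actn3, Hspb7, Ankrd2 and Smpx.

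Genes of the machinery that couples nerve and membrane signals to contraction were higher as well. Of 25 tested genes, 21 rose and 0 fell (median 1.02; 14 and 0 with the slope as a covariate). Ryr1, the calcium release channel of the sarcoplasmic reticulum, stood at 3.55, 4.15 and 5.95 at GD17 and at 7.22, 8.18 and 8.84 at GD19. It rose by 3.49 ± 0.41, 11.2-fold, with no overlap. Triadin, Trdn, which sits beside that channel, was below 4 on every GD17 array and between 4.04 and 6.4 at GD19, at least 2.25-fold higher when 4 is taken for the dim group. The calcium pump gene Atp2a1 rose by 1.95 ± 0.30, the voltage sensor gene Cacna1s by 1.26 and its auxiliary subunit gene Cacna2d1 by 1.31. Cacna1s was not called with the slope as a covariate (0.92, limma adjusted p = 0.0769). Of the acetylcholine receptor, the alpha subunit gene Chrna1 rose by 0.89 ± 0.12 and the fetal gamma subunit gene Chrng by 1.00 ± 0.21. Chrng was not called within batch 2, where its difference was 0.8. Chrne, the adult epsilon subunit, reached 2.17 at most on any array and was not tested.

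Regulators of myogenesis moved less. Of 19 tested, 15 rose and 0 fell, with a median of 0.58 (7 and 0 with the slope as a covariate). Myf6, a regulator of late differentiation, rose by 1.33 ± 0.21, from between 8.85 and 9.06 to between 9.56 and 10.64. Myod1 and Myog, which commit myoblasts and drive their differentiation, rose by 0.58 ± 0.11 and 0.55 ± 0.11, each without overlap between the ages. Under the slope covariate the differences were 0.48 for each, and neither was called (limma adjusted p = 0.125 and 0.106). M-cadherin, Cdh15, an adhesion molecule of myoblasts, rose by 0.91 and caveolin 3, Cav3, by 1.17.

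Muscle fuel genes rose in 13 of 20 cases and fell in 1 (median 0.91; 13 and 0 with the slope as a covariate). Muscle creatine kinase, Ckm, stood at 10.42, 10.8 and 11.06 at GD17 and at 12.37, 13.32 and 13.65 at GD19, and rose by 2.41 ± 0.25. The muscle isoforms of AMP deaminase, Ampd1, enolase, Eno3, cytochrome c oxidase subunit 6A, Cox6a2, and phosphofructokinase, Pfkm, rose by 2.07, 1.65, 1.54 and 0.74. The gene that fell was Mb, the oxygen store myoglobin, singled out after its values were seen. It was dim, at 4.93 ± 0.40 at GD17 and 4.23 ± 0.35 at GD19, and its difference of -0.69 was lost in 6 of the 13 fits that left out an array.

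The sequences just upstream of these genes were set beside the values, because members of the 5 muscle lists rose together. Of the 96 muscle genes that rose, 76 matched a RefSeq promoter by gene ID (GRCr8, 300 bases, from 250 before the start to 50 after it). The E-box CAGCTG, a letter pattern that myogenic regulators bind, reads the same on both strands. It occurred in 30 of the 76 (39.5%), against 15.8% of the promoters of all tested genes and 15.1% of all 27457 promoters in the table. Over all 92 promoters of tested muscle genes, whether the gene rose or not, the share was 34.8%. The MEF2 site occurred in 6 of the 76 (7.89%), against 0.374% of the promoters of all tested genes and 0.605% of all promoters. The CArG box, a pattern bound by serum response factor, occurred in 3 (3.95%), against 1.27% and 1.64%. Over the 92 promoters matched to tested muscle genes, called or not, the shares were 9.78% (9 promoters) and 4.35% (4 promoters). They lay above the shares of the genes that rose. Both patterns read the same on either strand, and the 3 patterns were counted separately. These are matches of letters, not measured binding. The 5 shown are actin, both receptor subunits, creatine kinase and the oxidase subunit, in which capitals mark CAGCTG, the CArG box and the MEF2 site.
Acta1: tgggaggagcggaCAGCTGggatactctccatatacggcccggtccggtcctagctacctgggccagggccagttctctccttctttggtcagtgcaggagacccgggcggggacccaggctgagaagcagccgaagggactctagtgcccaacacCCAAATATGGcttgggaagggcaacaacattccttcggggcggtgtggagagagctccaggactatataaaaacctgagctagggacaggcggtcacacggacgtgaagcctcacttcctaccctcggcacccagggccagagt
Chrna1: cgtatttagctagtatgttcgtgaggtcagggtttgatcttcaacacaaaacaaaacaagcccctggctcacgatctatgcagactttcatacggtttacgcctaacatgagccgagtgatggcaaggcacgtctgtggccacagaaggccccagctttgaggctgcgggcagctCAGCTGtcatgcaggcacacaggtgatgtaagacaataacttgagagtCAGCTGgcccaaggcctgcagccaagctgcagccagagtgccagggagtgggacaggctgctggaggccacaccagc
Chrng: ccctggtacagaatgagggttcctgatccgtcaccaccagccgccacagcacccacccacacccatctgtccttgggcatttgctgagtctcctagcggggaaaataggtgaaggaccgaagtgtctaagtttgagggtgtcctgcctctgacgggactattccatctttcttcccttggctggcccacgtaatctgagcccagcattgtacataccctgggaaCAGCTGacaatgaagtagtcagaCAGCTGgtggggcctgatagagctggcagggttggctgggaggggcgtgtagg
Ckm: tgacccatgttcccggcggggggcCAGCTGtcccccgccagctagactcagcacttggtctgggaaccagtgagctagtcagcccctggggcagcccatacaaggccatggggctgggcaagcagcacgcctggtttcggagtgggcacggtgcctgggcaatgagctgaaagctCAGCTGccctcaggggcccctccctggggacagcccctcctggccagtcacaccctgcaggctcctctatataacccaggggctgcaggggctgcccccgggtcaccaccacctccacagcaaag
Cox6a2: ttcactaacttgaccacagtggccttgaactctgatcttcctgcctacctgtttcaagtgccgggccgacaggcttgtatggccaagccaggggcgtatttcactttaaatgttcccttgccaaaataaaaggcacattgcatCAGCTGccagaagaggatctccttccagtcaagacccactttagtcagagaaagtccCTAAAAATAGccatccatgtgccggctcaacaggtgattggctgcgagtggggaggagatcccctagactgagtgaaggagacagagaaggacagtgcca
They lie at chr19:68784145-68784444 (minus strand), chr3:78877304-78877603 (minus), chr9:95325734-95326033 (plus), chr1:88189211-88189510 (plus) and chr1:192219667-192219966 (minus). In Acta1, an E-box begins 237 bases before the start and a CArG box 94 before it. Chrna1 has E-boxes at 75 and 27 bases before the start and Chrng at 26 and 3. Ckm has E-boxes at 226 and 75. Cox6a2 has an E-box at 107 and a MEF2 site at 50. The genes of these 5 promoters rose by between 0.89 (Chrna1) and 2.41 (Ckm).

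Smooth muscle genes rose in 12 of 16 cases and fell in 0 (median 0.73), but 3 and 0 were called with the slope as a covariate. The smooth muscle heavy chain Myh11 rose by 2.32 ± 0.28, from between 4.01 and 5.35 to between 6.34 and 7.82. With the covariate its difference was 1.18 (limma adjusted p = 0.0582). Synaptopodin 2, Synpo2, an actin-bundling protein of smooth and striated muscle, rose by 1.11 and kept its call (1.19). The integrin Itga8 rose by 1.05 and the myosin light chain kinase Mylk by 0.73, with 0.32 and 0.31 under the covariate, not called. Aoc3, an amine oxidase, was at 4 or below on every GD17 array and at 7.5 in the median GD19 array. ORL_GD19 replicate 4 stood at 4.38. The gene was at least 7.61-fold higher with 4 for the dim group, and its fitted difference was 3.24 with that array and 3.81 without it. The smooth muscle actin gene Acta2 was among the 4 members not called.

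Matrix genes were called higher in large numbers. Of 31 tested collagens and collagen-modifying enzymes, 30 rose and 1 fell (median 1.00). Of 40 glycoproteins and proteoglycans, 32 rose and 0 fell (median 0.98). Of 23 proteases and inhibitors, 16 rose and 1 fell (median 0.58). These genes are long, with median spans of 54.4, 63.4 and 28.2 kb. Under the slope covariate the calls were 3 and 0, 6 and 0, and 4 and 0, and the medians 0.45, 0.33 and 0.27. In LE the medians were 0.11, 0.01 and 0.10.

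Col1a1, a chain of type I collagen, stood at 12.33, 12.67 and 13.76 at GD17 and at 14.12, 14.85 and 14.95 at GD19, without overlap. It rose by 1.81 ± 0.21, and with the covariate its difference was 0.80 (limma adjusted p = 0.053). Col3a1, of type III, rose by 0.51 ± 0.10 (0.09 with the covariate, not called). The type V chain Col5a1 rose by 2.02 ± 0.21, from between 10.51 and 11.86 to between 12.75 and 13.49, and kept its call with the covariate (1.15, limma adjusted p = 0.0157). So did the cross-linking enzyme lysyl oxidase, Lox, with 1.32 and 0.88, and its relative Loxl1, with 0.80 and 0.61. The type VI chains Col6a2 and Col6a3 and the fibril-associated Col14a1 rose by 2.44, 1.74 and 2.09, and none of the 3 was called with the covariate. The gene that fell was Col2a1, the collagen of cartilage, at 6.58 ± 0.47 and 5.05 ± 0.44, a difference of -1.55.

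The largest rise among the called genes was that of Fndc1, which encodes a protein with fibronectin type III repeats. It stood at 3.78, 5.01 and 6.72 at GD17 and at 8.99, 10.02 and 10.49 at GD19, a rise of 4.89 ± 0.43 or 29.6-fold, and of 3.91 with the covariate (limma adjusted p = 0.00464). Thrombospondin 2, Thbs2, rose by 3.21 and the muscle basement membrane laminin Lama2 by 2.56, both also called with the covariate. Tenascin C, Tnc, the fibulin Fbln2 and fibrillin 1, Fbn1, rose by 1.48, 1.23 and 1.60 and were called with it too, at 0.87, 0.67 and 0.65. Mfap5, a microfibril protein, rose by 2.95 ± 0.71, and it was not called with the covariate (limma adjusted p = 0.0625) or within batch 2 (2.34). Emilin3, a glycoprotein outside the list, rose by 1.80 with overlap. The early matrix of the gubernaculum gave a mixed picture. Hyaluronan synthase 2, Has2, stood at 9.67 ± 0.12 and 9.76 ± 0.09 and was not called (0.10 ± 0.09), and versican, Vcan, was called higher by 0.88 ± 0.24 but had a difference of -0.14 with the covariate.

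Among proteases, the aggrecanases Adamts1 and Adamts5 rose by 0.93 and 1.15 and were called with the covariate. The membrane-type protease Mmp14 rose by 0.85 and its inhibitor Reck by 0.78, and neither was called with it. Serpine2, a serine protease inhibitor singled out as the 1 that fell, had a difference of -0.55.

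**Figure D3:**
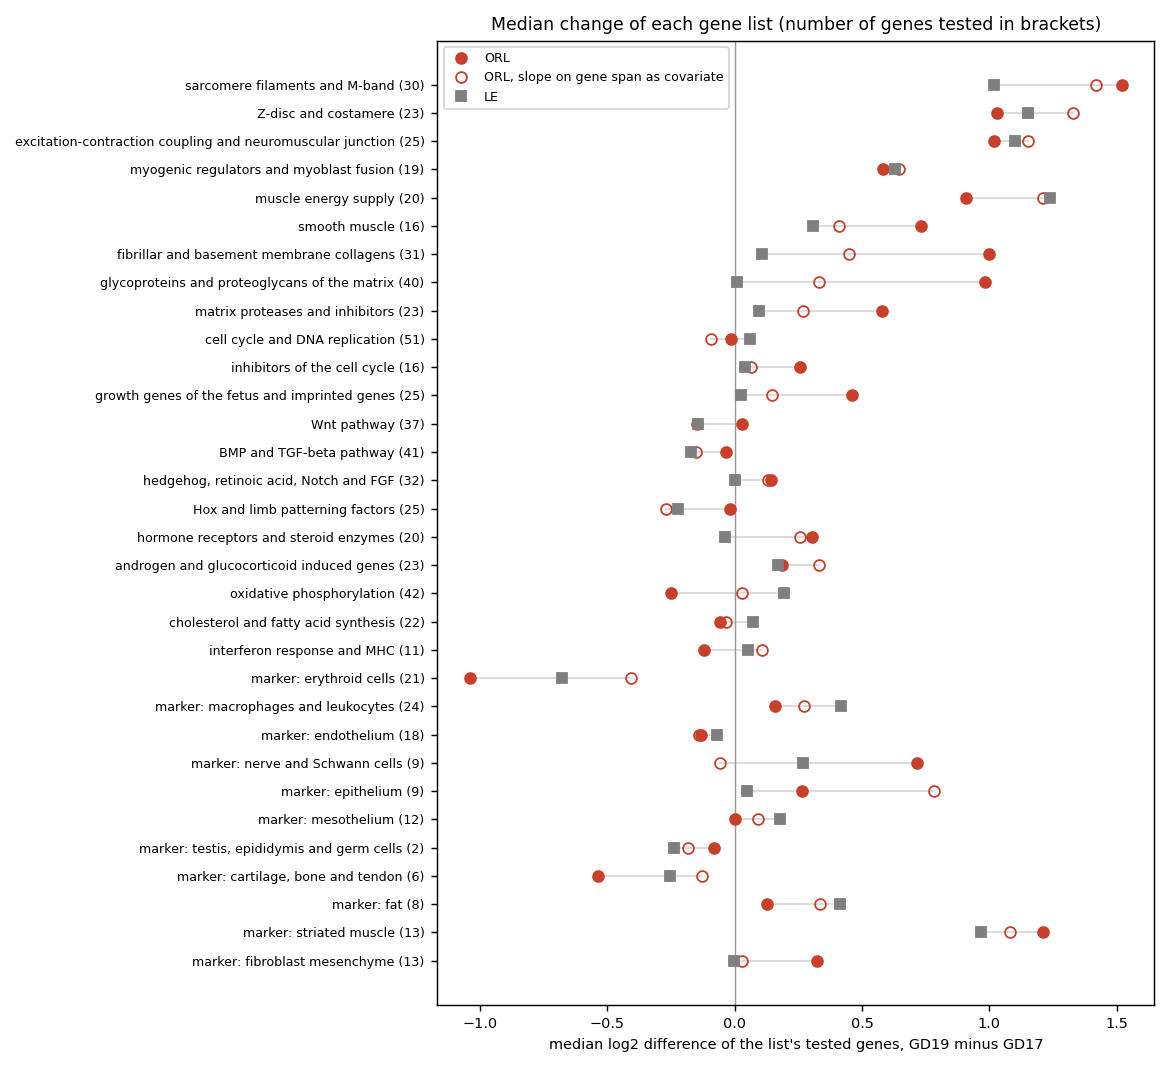
Median log2 difference GD19 minus GD17 of the tested genes of each list, in ORL (filled circles), in ORL with the span slope in the fit (open circles) and in LE (squares). The 5 striated muscle lists lie between 0.58 and 1.52 in ORL and between 0.645 and 1.42 with the covariate, and the collagen and glycoprotein medians move from 1.00 and 0.98 to 0.45 and 0.33.

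Cell cycle genes moved in both directions. Of 51 tested, 11 rose and 11 fell (21.6% each) with a median of -0.02, shares near those of all genes tested. Mki67 and Cenpf, chromosomal proteins of dividing cells, rose by 1.95 ± 0.28 and 1.54 ± 0.21, and the topoisomerase Top2a by 0.44. None of these 3 was called with the slope as a covariate. The geminin gene Gmnn, a brake on DNA replication licensing, the cyclin gene Ccna2 and the primase gene Prim1 fell, with differences of -0.65, -0.63 and -0.68, and all 3 were called with it. With the covariate 0 rose and 4 fell over the list, the fourth being the survivin gene Birc5 (-0.58). Of 16 inhibitors of the cycle, 8 rose and 1 fell (2 and 0 with the covariate). The cyclin-dependent kinase inhibitor Cdkn1a stood at 8.39, 8.94 and 9.27 at GD17 and at 9.62, 9.99 and 10.48 at GD19, and rose by 1.10 ± 0.19. It was called with the covariate (1.31, limma adjusted p = 0.0245). Cdkn2c rose by 0.74 and the pocket protein gene Rbl2 by 0.49, neither called with it. Cdkn1c was called higher by 0.16 (SE 0.05), and was not called with the covariate.

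Growth genes of the fetus, many of them imprinted (expressed from 1 parental copy), rose in 17 of 25 cases and fell in 5 (median 0.46), and without ORL_GD19 replicate 1, 3 fell. With the slope as a covariate 0 rose and 1 fell. Dlk1, an inhibitor of fat cell formation, rose by 1.99 ± 0.29, the zinc finger gene Plagl1 by 1.01, the receptor gene Igf1r by 0.89 and the non-coding RNA gene H19 by 0.70. Igf2, the growth factor, stood at 14.34 ± 0.15 and 14.62 ± 0.14 and rose by 0.27 ± 0.08 with overlap.

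Signalling lists held changes of single members rather than shifts of the whole list. Of 37 Wnt pathway genes, 9 rose and 1 fell (median 0.03, and 3 and 0 with the slope as a covariate). Without ORL_GD19 replicate 4, 9 rose and 3 fell. Over all arrays the share that rose, 24.3%, was near that of all genes tested (23.7%), and 2.7% fell, against 26.3%. The receptor gene Lgr5 rose by 1.06 ± 0.12, and the secreted Wnt inhibitors Frzb and Wif1 by 0.94 and 0.81. The transcription factor gene Tcf7l2 rose by 0.49. The ligands Wnt4 (-0.05 ± 0.22) and Wnt5a (-0.25 ± 0.22) were not called. Of 41 genes of BMP and TGF-beta signalling, 12 rose and 11 fell (2 and 1 with the covariate). The shares without the covariate, 29.3% and 26.8%, were near those of all genes tested. Tgfb3, a ligand, rose by 1.49 ± 0.20 and Ltbp3, which holds latent TGF-beta in the matrix, by 1.47. The ligand Bmp6 rose by 1.42 and the antagonist chordin, Chrd, by 0.66. Bmp3 fell, from 7.37 ± 0.30 to 6.39 ± 0.55 (a difference of -0.97), and Bmp4 was not called (-0.36 ± 0.16, limma adjusted p = 0.0653).

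Retinoic acid carriers fell. Among 32 genes of hedgehog, retinoic acid, Notch and FGF signalling, 12 rose (37.5%) and 8 fell (25%), against 23.7% and 26.3% of all genes. With the covariate 4 rose and 2 fell, and without ORL_GD19 replicate 2, 3 fell. Crabp1, which binds retinoic acid in the cytoplasm, stood at 10.34, 11.25 and 11.52 at GD17 and at 9.29, 9.77 and 10.1 at GD19, a difference of -1.42 ± 0.21. Its relative Crabp2 had a difference of -0.78 ± 0.14. Both were called with the covariate (-1.60 and -0.93). The receptor gene Notch1 rose by 1.05. Of 25 Hox genes and other limb patterning factors, 8 rose and 5 fell (2 and 2 with the covariate). The shares without the covariate were 32% and 20%, against the same shares of all genes. Hoxd8 rose by 0.98 ± 0.12 and the homeobox gene Alx1 by 1.04. Hoxa10, which is needed for testis descent in mice, fell from 11.76 ± 0.10 to 11.29 ± 0.13, a difference of -0.47 that was called with the covariate (-0.60). Hoxa11 was not called (-0.15 ± 0.09). The hindlimb factor Tbx4 had a difference of -1.29, below 4 on all GD19 arrays and at least 1.55-fold lower with 4 for the dim group. Twist1, a repressor of muscle differentiation in mesenchyme, had a difference of -0.78 and was called with the covariate too.

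Hormone genes held the steepest fall. Of 20 tested receptors, hormones and steroid enzymes, 9 rose and 3 fell (3 and 1 with the covariate). Crh, the corticotropin-releasing hormone, stood at 6.76, 7.59 and 8.12 at GD17 and at 2.16, 2.24 and 2.38 at GD19. All GD19 arrays were thus near the floor of the scale, which was 2.16. The difference was -5.22 ± 0.32 (limma adjusted p = 2.41e-09), and Crh was at least 11.2-fold lower with 4 for the dim group. With the covariate the difference was -4.89. Prlr, the prolactin receptor, rose by 1.95 ± 0.29, from between 3.55 and 4.41 to between 5.49 and 6.65, and was called with the covariate (1.84). The thyroid hormone receptor gene Thra and the nuclear receptor coactivator gene Ncoa1 rose by 1.01 and 1.13, neither called with it. The glucocorticoid receptor Nr3c1 was not called (0.12 ± 0.06). Esr1 and the hormone gene Insl3 were at 2.16 at most on every array. Rxfp2, the receptor for insulin-like 3, was not analysed here. Of 23 genes that androgen or glucocorticoid induce in other tissues, 9 rose and 2 fell (median 0.19; 4 and 0 with the covariate), and between 2 and 4 fell when single arrays were left out. Klf9 rose by 1.44 ± 0.16 and Klf15 by 1.23, both called with it, Pdk4 by 1.42 and Fkbp5 by 0.42.

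Several genes with large changes belong to no list above. Pde4dip, the anchor protein myomegalin, rose by 3.64 ± 0.34 and F13a1, the A chain of coagulation factor XIII, by 3.44 ± 0.47. Pla1a, a phospholipase, rose by 3.82 ± 0.68. The other 5 GD19 arrays lay between 8.26 and 9.33, and ORL_GD19 replicate 4 lay at 4.77, within the GD17 range. Without that array the rise was 4.59. The alcohol dehydrogenase gene Adh1c rose by 3.02. Pnlip, pancreatic lipase, fell from between 7.77 and 8.89 to between 2.65 and 5.23, a difference of -5.06 ± 0.59. The value of 5.23 was that of ORL_GD19 replicate 4, and the others were at 2.93 or below. The tight junction gene Cldn11 had a difference of -3.19, the small GTPase gene Rit2 of -3.14, Nup62cl of -2.99, and Dct, an enzyme of melanin synthesis, of -2.92. Tacr3, a tachykinin receptor, Klhl4 and Car8 followed with -2.36, -2.29 and -2.04. ORL_GD19 replicate 4 stood apart for Rit2 (5), Nup62cl (7.06) and Dct (5.34). The next highest GD19 arrays were at 3.18, 4.75 and 3.54. Without replicate 4 the differences of Cldn11 and Dct were -3.53 and -3.3. Of the genes in this paragraph, Pla1a and Dct were not called with the slope as a covariate, and the others were.

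**Figure D4:**
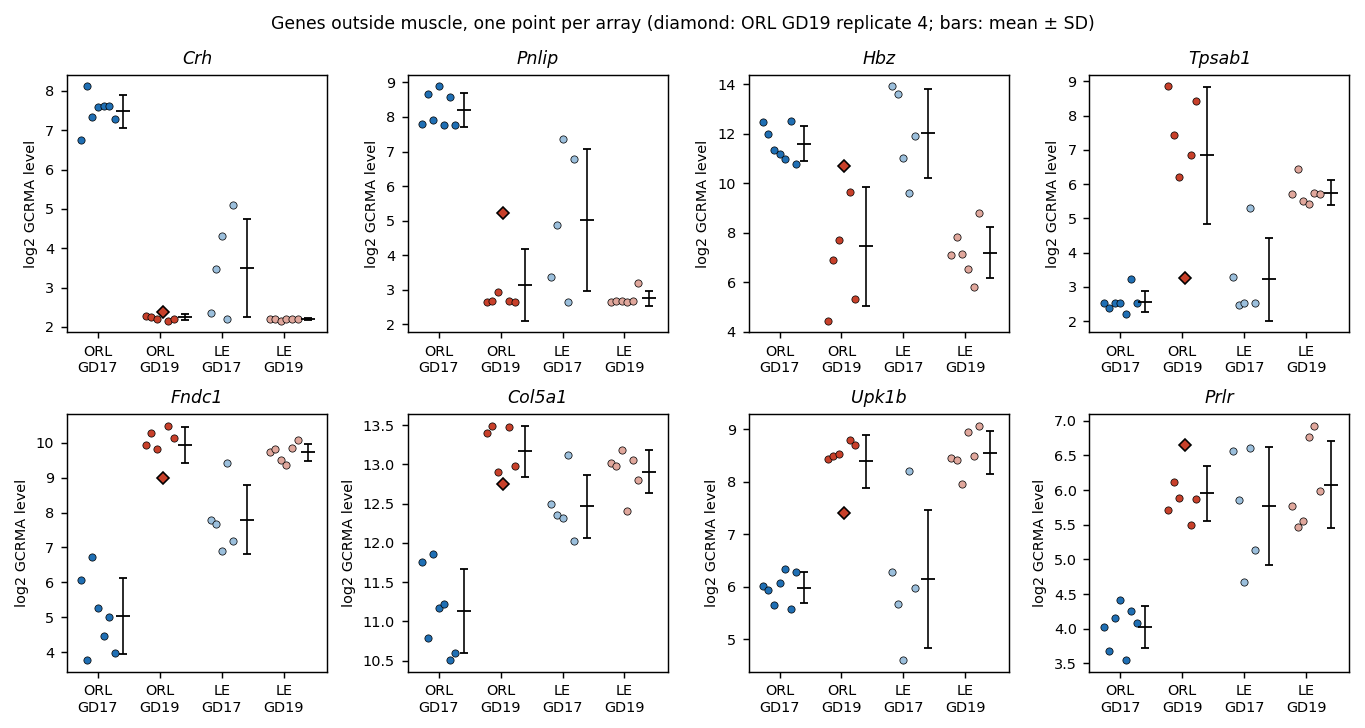
Log2 GCRMA levels of 8 genes outside striated muscle, a point per array, in ORL and LE at each age, with mean and SD beside each group; the diamond is ORL_GD19 replicate 4. Crh lies between 6.76 and 8.12 in ORL at GD17 and between 2.16 and 2.38 at GD19, and Tpsab1 lies between 2.22 and 3.23 and between 3.27 and 8.86.

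Some markers of other cell types were called as well, and their counts are read against 23.7% of all genes higher and 26.3% lower. Among 21 erythroid markers, 6 fell (28.6%, near the share of all genes) and 1 rose (median -1.04). Their mean level went from 9.60 ± 0.63 to 8.50 ± 0.80 with overlap (exact permutation test, two-sided, p = 0.014, and 0.0202 adjusted). Of the 6 that fell, 4 were globin genes named as embryonic or fetal. Hbz stood at 10.76, 11.32 and 12.51 at GD17 and at 4.44, 7.31 and 10.67 at GD19, a difference of -4.16 ± 0.85, and of -4.88 without ORL_GD19 replicate 4. Hbg1, Hbe2 and Hbe1 had differences of -2.93, -2.27 and -1.70. The beta globin gene Hbb stood at 16.04 ± 0.07 and 16.00 ± 0.10 and was not called. These levels lie near the top of the scale, whose highest value was 16.4, where a change may not be seen. The spectrin gene Sptb was the 1 that rose. Of these 21 markers 0 were called with the slope as a covariate. With the erythroid mean of each array as a covariate, 28 of the 30 sarcomere genes rose and 1 fell, as without it.

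Of 24 markers of macrophages and leukocytes, 6 rose, 1 fell and 17 were not called (1 and 0 called with the slope as a covariate). The share that rose, 25.0%, was near that of all genes tested (23.7%). Of the 6, 5 are granule proteases of mast cells; no list of mast cell genes had been fixed, and they were singled out after their values were seen. Tpsab1, a tryptase, was below 4 on every GD17 array and stood at 3.27, 7.14 and 8.86 at GD19, with ORL_GD19 replicate 4 lowest. It was at least 7.15-fold higher with 4 for the dim group. The fitted difference was 4.26 ± 0.63, and 5.02 without that array. Cpa3, Cma1, Mcpt1 and Mcpt10 rose by 2.68, 1.82, 1.88 and 2.65, each with overlap between the ages and with ORL_GD19 replicate 4 lowest at GD19. The receptor Kit, another mast cell marker, was at the floor on every array. The sixth was the macrophage receptor gene Csf1r (0.86), and the 1 that fell was the chemokine gene Ccl2, with -0.82, below 4 on every GD19 array and at least 1.08-fold lower with 4 for the dim group.

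Mesothelial markers were called higher in 4 of 12 cases (33.3%) and lower in 1 (8.33%), against 23.7% and 26.3% of all genes. Upk1b and Msln, surface proteins of mesothelium, rose by 2.44 ± 0.34 and 2.24 ± 0.43 without overlap, Lrrn4 rose by 0.95, the keratin gene Krt8 was the fourth, and Bnc1 had a difference of -0.50. The others, Wt1 among them, were not called, and the median difference of the list was 0.000284. The mean level of the list, in which Upk1b and Msln had the largest differences, was between 7.69 and 7.90 at GD17 and between 7.96 and 8.55 at GD19, without overlap. Of 9 epithelial markers 4 rose and 0 fell, with Krt7 at 0.65. Sprr1a, below 4 on every GD17 array and on ORL_GD19 replicate 4, was at least 1.3-fold higher with 4 for the dim group. Of 18 endothelial markers 5 rose and 5 fell (27.8% each, near the shares of all genes), with Eng at 1.17, Sox17 at -0.97 and Cldn5 at -1.09. Among 9 markers of nerve and Schwann cells, 5 rose and 2 fell, with the myelin gene Pmp22 at 0.71 and the peripheral neuron filament gene Prph at -1.12. Of 6 markers of cartilage, bone and tendon 1 rose and 2 fell, with the tendon factor Scx at -1.07 beside Col2a1. Of 8 fat markers 2 rose (25%, near the share of all genes) and 1 fell (0 to 2 when single arrays were left out). The carbonic anhydrase gene Car3 was higher by 1.77 ± 0.58 with overlap: ORL_GD19 replicate 1, at 8.21, lay below every GD17 array, and without it the rise was 2.40. Of 13 fibroblast markers 9 rose and 1 fell (0 and 1 with the slope as a covariate). With that covariate 2 epithelial markers, 1 mesothelial marker and 1 nerve marker rose, 1 nerve marker fell, and no endothelial, cartilage or fat marker was called.

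Mitochondrial respiration genes were lower as a group. Of 42 tested genes of oxidative phosphorylation, 26 fell and 0 rose, with a median of -0.25. These are short genes, with a median span of 7.92 kb, and with the slope as a covariate 1 fell and the median was 0.03. Without ORL_GD19 replicate 4, 26 fell and 2 rose. The complex I gene Ndufa4 stood at 14.07, 14.23 and 14.36 at GD17 and at 13.53, 13.67 and 13.95 at GD19, a difference of -0.51 ± 0.07 that was called with the covariate (-0.38). Ndufc2, Cox7b and Uqcrq had differences of -0.44, -0.48 and -0.32 and were not called with it. Of 22 genes of cholesterol and fatty acid synthesis 5 rose (22.7%, near the share of all genes) and 9 fell (40.9%). Of 11 interferon response and MHC genes 3 rose (27.3%, near that share) and 1 fell (9.09%). With the covariate the counts were 1 and 0, and 0 and 0.

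The change was then set beside that of LE. In LE 1086 genes rose (11.3%) and 757 fell (7.88%). Of the genes that rose in ORL 536 rose in LE, which is 23.5% of those of ORL and 49.4% of those of LE. Of those that fell 339 fell in both, or 13.4% and 44.8%. Calls in the opposite direction in LE were 56 among the genes that rose in ORL and 97 among those that fell. A test of the difference between the 2 changes called 1210 genes as moving upwards in ORL relative to LE (12.6%) and 1613 as moving downwards (16.8%). That count depended on the arrays used. Over probe sets it was 4106, and it was 2 within batch 1, 1913 within batch 2 and 3408 without LE_GD17 replicate 4, which lay among the GD19 arrays on the first principal component. With the span slope in the fit it was 0 by limma, with 941 probe sets of 15746 at an unadjusted p under 0.05.

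Muscle rose in both strains. In LE 25 of the 30 sarcomere genes rose and 0 fell (median 1.02), and the difference between strains was called for 6, all larger in ORL. They included Myh3 (1.74 in ORL and 0.53 in LE; limma adjusted p of the difference 0.00154), Myh7 (2.46 and 0.66; 0.0011), Neb (2.99 and 0.70; 0.00305) and Myom1 (1.79 and 1.00; 0.0299). Without LE_GD17 replicate 4 the first 3 were called and Myom1 was not (limma adjusted p = 0.052). With LE_GD19 replicates 4 and 6 left out, 4 sarcomere genes were called, and Myom1 was not (limma adjusted p = 0.0685). For Myh8 (4.01 and 2.80), Acta1 (0.93 and 0.65), Ckm (2.41 and 1.99) and Myog (0.55 and 0.73) it was not called. The 15 regulators that rose in ORL compare with 14 in LE, and 0 of 19 differed between the strains. Ryr1 (3.49 and 1.34) and Flnc (1.34 and 0.32) differed, at limma adjusted p = 0.0131 and 0.00192. Outside the sarcomere list the medians of the muscle lists were larger in LE. They were 1.15 in LE and 1.03 in ORL for the Z-disc and 1.10 and 1.02 for coupling. For regulators they were 0.629 and 0.582, and for fuel genes 1.24 and 0.907. The strain difference was called upwards and downwards in ORL for 1 and 2 Z-disc, 5 and 1 coupling and 0 and 1 fuel genes.

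Many calls of the difference between strains fell in the matrix and respiration lists. Over all probe sets the difference was called for 0 with the span slope in the fit and for 2 within batch 1. The collagen, glycoprotein and respiration lists have median spans of 54.4, 63.4 and 7.92 kb. The slope moved in opposite directions in the strains, and its part in these calls was not tested. The difference was called for 22 of 31 collagen genes and 24 of 40 glycoprotein genes, all upwards in ORL, and for 34 of 42 respiration genes, all downwards. Col1a1 changed by 1.81 in ORL and 0.14 in LE, Col6a2 by 2.44 and 0.24, and Fndc1 by 4.89 and 1.94. In LE at GD19, replicates 4 and 6 lay apart for both collagens. Col1a1 stood at 13.42 and 13.72 on them and between 14.41 and 14.73 on the other 4 arrays. Col6a2 stood at 7.75 and 8.28 on them and between 9.23 and 11.14 on the others. Their slopes on gene span were -0.157 and -0.156. With both left out, Col1a1 changed by 0.39 in LE, and the difference between strains was called for Col1a1 and Col6a2, at 1.43 and 1.83 (limma adjusted p = 0.00543 and 0.0326). It was then called for 16 collagen, 15 glycoprotein and 28 respiration genes, in the same directions. The hormone Crh differed by -3.92 ± 0.41 (limma adjusted p = 0.000184). In LE it stood between 2.21 and 5.11 at GD17 and at 2.21 or below at GD19. With both strains near the floor at GD19, the size of the Crh difference is not a measured one. Prlr changed by 1.95 in ORL and 0.28 in LE (limma adjusted p of the difference 0.0067), and its LE arrays of GD17 lay between 4.68 and 6.60. Mlf1 rose more in LE, by 2.35 against 0.255. Hoxa10 (-0.47 and -0.46), Bmp3 (-0.97 and -1.29), Crabp1 (-1.42 and -1.05) and the mast cell genes Cpa3 and Cma1 fell or rose in both strains, and the difference was not called.

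**Figure D5:**
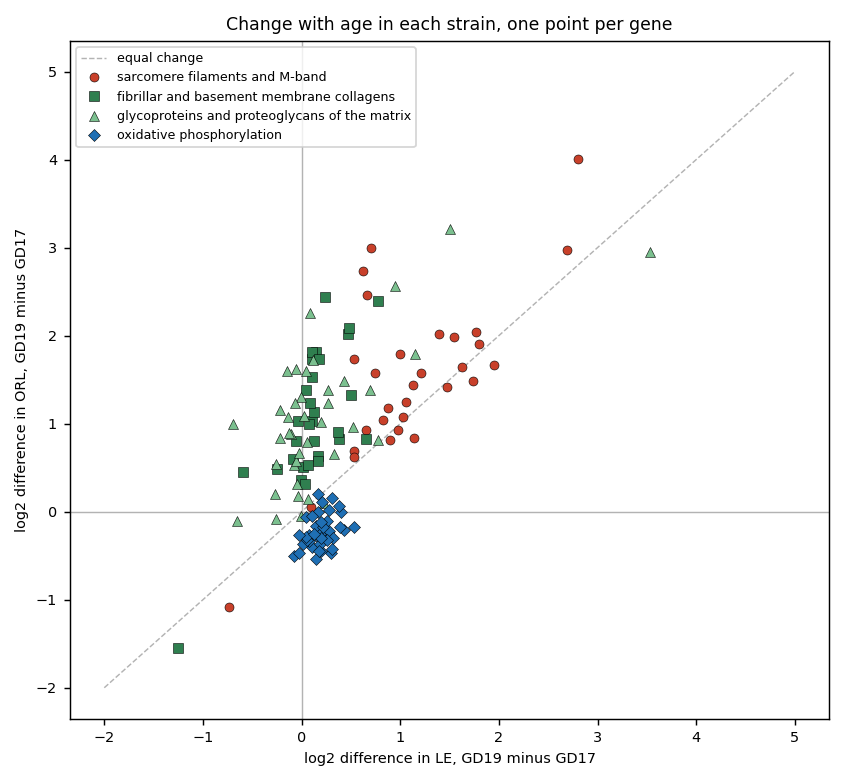
Log2 difference GD19 minus GD17 in ORL (vertical axis) against LE (horizontal axis), a point per tested gene of 4 lists; the dashed line marks equal change. Sarcomere genes have medians of 1.02 in LE and 1.52 in ORL, and Myh1 is the 1 below 0 in both. Collagens and glycoproteins have medians near 0 in LE (0.11 and 0.01), with single genes away from 0, and lie mostly above 0 in ORL. Respiration genes have medians of 0.19 in LE and -0.25 in ORL.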

How the data were processed

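RNA of gubernacula pooled by litter was hybridized to Affymetrix rat arrays. The table deposited by the authors holds log2 levels, 31099 probe sets by 26 arrays, computed by GCRMA under R 2.6.2, per the submitters' processing notes; the version of GCRMA is not given in the sources used here. GCRMA normalizes arrays to each other and places undetected probe sets at a floor, here 2.16. The fitted size of a difference that reaches the floor is therefore not a measured one. After 57 control probe sets were removed, those at log2 4 or more on at least 5 of 24 arrays were tested: 15746, of which 12535 had 1 gene symbol, 305 several and 2906 none. Where a gene had several probe sets (2237 of 9610 genes), the brightest on average stood for it. Of the single-gene probe sets 12501 matched RefSeq (GRCr8) by gene ID, which also gave gene spans and promoters.

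The model, in limma 3.58.1 (R 4.3.3), had a mean for each strain at each age and a term for hybridization batch, over 24 arrays. Tests were two-sided, with 19 residual degrees of freedom and Benjamini-Hochberg adjustment over 15746 probe sets at 0.05. The script was tested on simulated data. A lower bound of a fold takes 4 for a group whose arrays all lie at or below it. The number of arrays limits the precision. Litter pools are separate samples, and the labels tie arrays of different groups to each other by no more than batch and replicate number.

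Genes were named by rule: the 15 largest called rises and falls whose sign did not differ between batches, in each list no more than 6 called genes (lowest adjusted p first), 5 genes in either direction of the strain difference, and a fixed set. Mb, Serpine2 and other genes outside it were named after their values were seen. Some genes that the rule picked are not described here, among them LOC100363236, Ly6i, Fam241b, Akr7a3, Shank1, Zp2, Ano3, Cntn3 and Pard6g. The members, lists and rules were chosen with earlier results of these data known. Lists are described by counts and medians, without a test. Single arrays were left out in turn, and the filter, normalization, batch term, block and covariates were varied, as given in the closing section.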

Additional observations from a re-analysis of the deposited data

Results flagged for a closer look

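In 350 groups of arrays, each the 7 or 6 ORL arrays of an age for 1 of 162 genes or of 13 measures of whole arrays, 33 held an array whose gap to its nearest neighbour was large against the range of the group by Dixon's criterion. Chance gives about 1 in 20 such groups. Of the 33, 21 were ORL_GD19 replicate 4, and each of the 21 lay on the side of the GD17 levels. Among muscle genes this array was low for Myl4 (12.55), Tnnt1 (11.58), Tnni1 (12.72), Eno3 (11.25), Cox6a2 (10.6) and Aoc3 (4.38), in log2 level. It was low for Igf2 (14.35), Fkbp5 (8.44), Upk1b (7.41), Pla1a (4.77), F13a1 (6.23), Adh1c (7.06) and Sprr1a (2.19). It was high for Uqcrq (13.34), Pnlip (5.23), Rit2 (5), Nup62cl (7.06), Dct (5.34), Col2a1 (5.87), Prph (6.73) and Scx (8.83). Its position on the first principal component, between the ages, is given above, and what sets it apart was not tested. The other 5 such arrays of GD19 were replicate 3 for Itga8 (9.18), replicate 5 for Has2 (9.58), replicate 2 for Adamts1 (11.25), replicate 6 for Plagl1 (12.95) and replicate 1 for Car3 (8.21). At GD17 they were replicate 1 for Crabp2 (10.66) and Pmp22 (12.2), replicate 3 for Chrd (7.39) and Uqcrq (13.3), replicate 5 for Mb (4.05), replicate 6 for Tpsab1 (3.23) and replicate 7 for Aoc3 (2.95).

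Of 162 genes described above, the change with age differed between the strains for 68 at a limma adjusted p under 0.05, with the ORL change above the LE change for 52 and below it for 16. The values that follow are the ORL change minus the LE change, in log2. In muscle the difference was above 0 for Myh3 (1.21), Myh7 (1.8), Neb (2.29), Myom1 (0.794), Flnc (1.02), Ryr1 (2.15), Cacna2d1 (0.877), Myh11 (1.99), Itga8 (0.958) and Mylk (0.824), and below 0 for Mb (-1.29). In the matrix it was above 0 for Col1a1 (1.67), Col3a1 (0.497), Col5a1 (1.55), Col6a2 (2.2), Col6a3 (1.64), Col14a1 (1.61), Lox (0.822) and Loxl1 (0.857). The same held for Lama2 (1.62), Thbs2 (1.72), Tnc (1.06), Fbln2 (1.3), Fbn1 (1.55), Fndc1 (2.95), Emilin3 (2.36), Vcan (0.987), Adamts1 (0.768), Mmp14 (1.05) and Reck (0.679). Among cell cycle and growth genes the values were Gmnn (-0.693), Ccna2 (-0.494), Cenpf (1.6), Mki67 (1.58), Top2a (0.423), Rbl2 (0.741), Plagl1 (0.843), Igf1r (0.935), Dlk1 (1.31) and H19 (0.691). Among signalling and hormone genes they were Lgr5 (0.528), Wnt4 (1.28), Tcf7l2 (0.369), Ltbp3 (1.27), Tgfb3 (0.846), Notch1 (0.86), Eng (0.766), Thra (0.847), Ncoa1 (1.18), Prlr (1.68), Klf9 (0.798) and Crh (-3.92). Respiration genes gave Ndufa4 (-0.425), Ndufc2 (-0.619), Cox7b (-0.448) and Uqcrq (-0.373). Markers of other cells gave Krt7 (0.603), Sprr1a (-2.25, with every GD17 array of both strains below 4, so that this size is not a measured one), Pmp22 (0.293), Lrrn4 (0.608), Cldn5 (-0.946) and Scx (-0.851). The remaining genes were Pde4dip (2.05), Pnlip (-2.78), Nup62cl (-2.28), Klhl4 (-1.56), Car8 (-1.47) and Mlf1 (-2.1). The sizes for Crh and Pnlip are not measured ones either. Their GD19 arrays in both strains lay below 4, except ORL_GD19 replicate 4 for Pnlip. With LE_GD19 replicates 4 and 6 left out, 53 of the 68 were called in the same direction and 15 were not called. With the span slope in the fit the difference between strains was called for 0 probe sets by limma (941 of 15746 at an unadjusted p under 0.05).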

How the results depend on the processing

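Without a limit on fold, 7272 probe sets were called with age in ORL; with a limit of 2-fold the count was 1014. It was 3713 within batch 1, 3900 within batch 2 and 1062 with the span slope as a covariate, and from 6249 to 7429 when each ORL array was left out in turn. The count of probe sets whose change differed between the strains was 4106; it was 2 within batch 1, 1913 within batch 2, 0 with the slope as a covariate and from 3207 to 4483 without single arrays of either strain. With LE_GD19 replicates 4 and 6 both left out it was 2662. In LE the count was 2752, 1784 without those 2 arrays, 5 within batch 2 and from 2139 to 3174 without single arrays. Within a batch a group held 2 to 4 arrays. Centring, quantile normalization, the filter, the batch term, ORL arrays alone, array weights, moderation with trend and the erythroid covariate each left the ORL count within 1.5 times; centring gave 3293 higher and 4223 lower. With the slope as a covariate the differences of Vcan (-0.142) and Ccl2 (0.236) changed sign, 64 other genes named in the text lost their call, and 21 of 32 list medians moved beyond the SD between arrays, a covariate that overlaps with age in ORL. Bmp4 and Nr3c1 were called under some settings. Leaving out each LE array or both of those arrays, and all settings for the LE count were added after seeing the data.

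The groups share replicate numbers in the labels. With the replicate number as a block, 6557 probe sets were called in ORL, 3213 between the strains and 2158 in LE. Deviations of same-numbered ORL arrays correlated from -0.45 to 0.263, and 0 of 6 pairs correlated best with their own number. So few pairs cannot settle whether a number stands for something shared, and this was not tested further.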

Other observations

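The 2 arrays of GD19 whose strain is unknown in the labels entered no comparison. Their log2 levels, first replicate 1 and then replicate 2, are given as values. Among muscle genes they were 14.47 and 14.70 for Myh3, 11.33 and 11.59 for Myh7, 8.50 and 9.22 for Myh8, 14.5 and 14.7 for Acta1, and 12.38 and 12.99 for Ckm. Crh stood at 3.01 and 2.21, Pnlip at 3.93 and 2.65, and Prlr at 5.80 and 5.84. Fndc1 stood at 10.11 and 9.64 and Col5a1 at 12.54 and 12.87. Tpsab1, the mast cell tryptase, stood at 8.06 and 4.65, and the globin Hbz at 8.32 and 7.76. Nup62cl stood at 5.59 and 4.24 and Car8 at 5.10 and 4.38.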
